A study of Mus musculus with 6 samples.

Results

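The genes described here carry glucose through the cell: the sugar carriers at the membrane, the enzymes of glycolysis, the regulators of phosphofructokinase, the lactate dehydrogenases and monocarboxylate carriers, the gate that lets pyruvate into the mitochondrion, and 3 genes of the hypoxia response. They were chosen as a list of 37 gene symbols, which matched 38 of the 32285 identifiers in the count matrices, because the symbol Aldoa has a second identifier with almost no UMIs. The rule itself uses gene names alone. UMIs (unique molecular identifiers) were counted in single nuclei from the cortex of 7.5-month-old mice, sorted as negative for the neuronal nuclear protein NeuN, and each library was loaded from equal numbers of male and female nuclei. The study compared 3 genotypes with 2 libraries each (replicates 2 and 3): 5xFAD, 5xFAD;M28L and 5xFAD;P522R, named below 5xFAD, M28L and P522R.

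All 3 groups carry the 5xFAD transgenes, which encode mutant human amyloid precursor protein and presenilin under a promoter of neurons, so no group here is free of amyloid. M28L and P522R are variants of phospholipase C-γ2, a signalling enzyme of microglia. The labels do not give the number of copies of each variant, the number of mice pooled, or whether replicates 2 and 3 came from separate mice, so every p-value below measures only the spread between libraries.

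Glycolysis converts glucose to pyruvate in the cytosol. Pyruvate is then either reduced to lactate by lactate dehydrogenase and exported by monocarboxylate carriers, or taken up by the mitochondrial pyruvate carrier and oxidised by pyruvate dehydrogenase, which the pyruvate dehydrogenase kinases switch off. The transcription factor HIF1A, whose protein is marked for destruction by the prolyl hydroxylases when oxygen is plentiful, raises many glycolytic genes. In brain, astrocytes are known for glycolysis and lactate release, endothelial cells for moving glucose across the blood-brain barrier, and activated microglia for a shift towards glycolysis.

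The libraries held 9269 to 13783 nuclei each, with medians of 3842 to 4972 UMIs per nucleus and totals of 53326947 to 72288942 UMIs. After filters 60085 nuclei remained, and 11 cell types, named from marker genes as microglia-like, astrocyte-like and so on and written below without that suffix, had at least 20 nuclei in every library. Pairs of libraries shared between 20 and 71 barcodes. Astrocytes were the least even large type, with 1390 and 782 nuclei in 5xFAD, 701 and 545 in M28L and 342 and 161 in P522R. Endothelial nuclei were few, from 24 to 150 per library. Microglia numbered 867 to 1688 per library, and the 5xFAD libraries differed in their makeup: disease-associated-like nuclei were 16.3% of microglia in replicate 2 and 46.5% in replicate 3.

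The first question was which cells hold which of these transcripts. Of the 37 genes, 15 were highest in a single cell type with no overlap between its 6 libraries and those of any other type, against 27.4% of the 15838 genes that reached 5 CPM (UMIs scaled to a common total within that cell type and library) in any type. Microglia held 5 of them (Hif1a, Hk2, Mpc1, Slc16a3 and Slc2a5, background 3.2%), endothelial cells 5 (Aldoa, Gapdh, Ldha, Slc16a1 and Slc2a1, background 4.67%) and astrocytes 3 (Aldoc, Ldhb and Pfkm, background 3.62%). Border macrophages led for Slc16a7 (background 1.98%) and excitatory neurons for Pfkp (background 3.01%). None of the 37 led without overlap in oligodendrocytes (3.24%), their precursors (1.22%), committed precursors (1.43%), inhibitory neurons (1.41%), fibroblasts (2.32%) or pericytes or smooth muscle (1.28%). Because cell types are clusters of the same nuclei, these orders are a description without a test, although the 37 genes were kept out of the genes used for clustering.

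**Figure D1:**
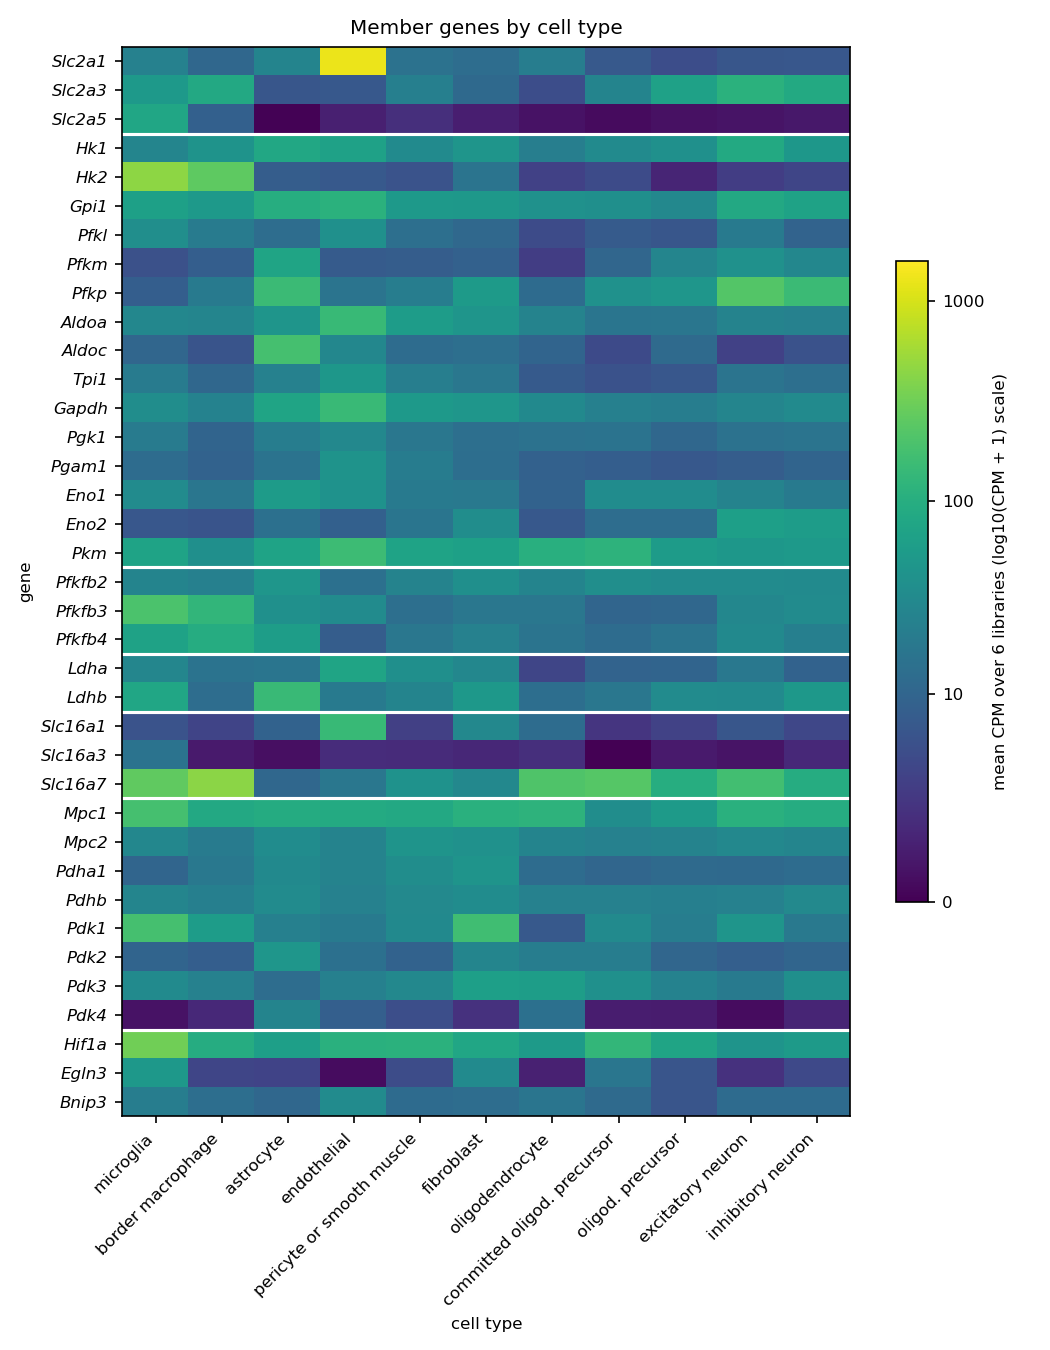
Mean level of each of the 37 genes (rows, ordered by role, white lines between roles) in 11 cell types (columns), as CPM averaged over 6 libraries on a log10(CPM + 1) colour scale. The brightest cell is Slc2a1 in endothelial cells (1284 CPM), and Slc2a5, Hk2 and Slc16a3 are brighter in microglia than in any other type.

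Among the sugar carriers, Slc2a1, which encodes the glucose transporter of the blood-brain barrier, was at 932 CPM in the lowest, 1244 at the median and 1710 in the highest endothelial library. Its next type, astrocytes, had a mean of 26.5 CPM, so no library of another type came near the endothelial ones. Slc2a3, the high-affinity neuronal glucose transporter, had its highest mean in excitatory neurons at 111 ± 7.46 CPM (SD, n = 6 libraries), followed by inhibitory neurons at 87.9 ± 10.3 and border macrophages at 83.3 ± 30.2, whose libraries overlapped. Slc2a5, a fructose carrier known as a microglial marker, was at 64.0, 70.0 and 99.9 CPM in the lowest, median and highest microglial library. Border macrophages came next at 8.57 ± 9.30 CPM from 11 UMIs in all, and every other type was below 2 CPM on average.

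Hexokinase traps glucose in the cell as its phosphate, and its 2 isozymes divided the cell types. Hk2 reached 378, 457 and 505 CPM in the lowest, median and highest microglial library and 255 ± 32.1 in border macrophages (n = 6), and its mean was at most 16.1 CPM in the other 9 types. Hk1 was highest in excitatory neurons (86 ± 7.26 CPM) and astrocytes (81.8 ± 15.4), which overlapped. As a share of the UMIs of both isozymes, Hk2 made up 94.1% ± 0.44 in microglia and 85.4% in border macrophages, but 8.86% ± 2.12 in astrocytes and 3.09% in excitatory neurons. Such shares compare cell types for one pair of genes, and they do not rank the enzymes, since UMIs from nuclei depend on each gene's length and introns.

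Phosphofructokinase, the committed step, split in another way. Pfkp was at 220 ± 16.9 CPM in excitatory neurons against 149 in astrocytes, and Pfkm was at 72.4 ± 7.73 CPM in astrocytes against 40.5 in excitatory neurons. The liver-type subunit Pfkl made up 73.0% ± 9.20 of the family's UMIs in microglia and 62.6% ± 16 in endothelial cells, but 5.64% ± 1.89 in astrocytes. The endothelial share rests on 156 UMIs in 6 libraries.

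Of the enzymes that follow, the aldolases differed most. Aldoc, the brain aldolase of astrocytes, was at 161, 181 and 207 CPM in the lowest, median and highest astrocyte library. Endothelial cells, the next type, were at 29.4 ± 33.0. It made up 80.2% ± 3.45 of aldolase UMIs in astrocytes and 25.4% ± 5.68 in microglia. Aldoa was highest in endothelial cells at 141 ± 40.9 CPM, ahead of pericytes or smooth muscle at 57.8. Gapdh, with a mean of 147 CPM, was highest there too, with 94.7 CPM in the lowest and 208 in the highest endothelial library against a mean of 72.3 in astrocytes.

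Endothelial cells also had the highest means of Tpi1 (48.5 CPM), Pgk1 (29.97), Pgam1 (42.6), Pkm (156), Gpi1 (109), Pfkl (38.8) and Bnip3 (34.2), but for these genes their libraries overlapped with another type. Eno1 was highest in astrocytes (56.5 ± 6.03 CPM), and Eno2, the neuronal enolase, in excitatory (62.1 ± 7.54) and inhibitory neurons (58.5 ± 4.13). Eno2 made up 70.4% of enolase UMIs in excitatory neurons against 16.3% in microglia. Mitochondrially encoded transcripts summed to 2004 to 3804 CPM in the endothelial libraries and to at most 674 CPM in any library of astrocytes, neurons, microglia or oligodendrocytes, and their part in the endothelial levels was not tested.

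The bifunctional enzymes encoded by the Pfkfb genes make or remove the sugar phosphate that activates phosphofructokinase. Pfkfb3 had means of 195 CPM in microglia (165 to 224 between libraries) and 127 ± 39.2 in border macrophages and at most 39.7 elsewhere, and it supplied 67.1% of the UMIs of Pfkfb2, Pfkfb3 and Pfkfb4 in microglia. Pfkfb4 was highest in border macrophages (96.1 ± 17.9 CPM) and microglia (68.1). Pfkfb2 showed its highest mean in astrocytes (47.6 CPM) and its lowest in endothelial cells (14.1).

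At the lactate step, Ldha, the subunit that favours making lactate, was at 55.6, 70.0 and 96.1 CPM in the lowest, median and highest endothelial library, against a mean of 37.8 in pericytes or smooth muscle. Ldhb, the subunit that favours using it, was at 134, 142 and 163 CPM in the lowest, median and highest astrocyte library, against 76.2 in microglia. Ldha made up 78.8% ± 5.95 of the pair's UMIs in endothelial cells, 27.6% ± 7.69 in microglia and 10.4% ± 1.95 in astrocytes.

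The 3 lactate carriers were each highest in a different type. Slc16a1 (MCT1) was at 140 ± 26.4 CPM in endothelial cells, 29.9 in fibroblasts and 12.5 ± 1.72 in oligodendrocytes. Slc16a7 (MCT2) was at 436 ± 79.3 CPM in border macrophages, 258 ± 31 in microglia, 226 in committed precursors and 205 in oligodendrocytes. Slc16a3 (MCT4), the low-affinity exporter of glycolytic cells, was at 9.42, 16.5 and 21.3 CPM in the lowest, median and highest microglial library, and at most 1.70 on average in any other type. Its microglial levels came from 462 UMIs.

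At the entry to the mitochondrion, Mpc1, a subunit of the pyruvate carrier, was at 172 to 193 CPM in the 6 microglial libraries against a mean of 115 in oligodendrocytes. Its partner Mpc2 and the dehydrogenase subunits Pdha1 and Pdhb differed less between types, with means of 20.5 to 44.3, 10.1 to 44.5 and 23.2 to 35.1 CPM. The kinases divided by type: Pdk1 was highest in microglia (178 ± 11.2 CPM) and fibroblasts (164 ± 30.4), Pdk2 in astrocytes (46.7 ± 5.79), Pdk3 in fibroblasts (62.2) and oligodendrocytes (59.9 ± 4.01), and Pdk4 in astrocytes (27.1 ± 1.62) and oligodendrocytes (14.3 ± 5.94). Pdk1 supplied 80.4% of kinase UMIs in microglia and 6.58% in oligodendrocytes.

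Hif1a was at 212, 316 and 441 CPM in the lowest, median and highest microglial library, against a mean of 132 in the next type, committed oligodendrocyte precursors. Egln3, the prolyl hydroxylase known as a HIF target, was at 49.98 ± 21.4 CPM in microglia, 32.6 ± 14.6 in fibroblasts and 0.948 in oligodendrocytes. Bnip3, a mitophagy receptor, ranged from 5.92 in oligodendrocyte precursors to 34.2 CPM in endothelial cells. The wide spread of Hif1a and Egln3 between microglial libraries led to the question of microglial state.

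**Figure D2:**
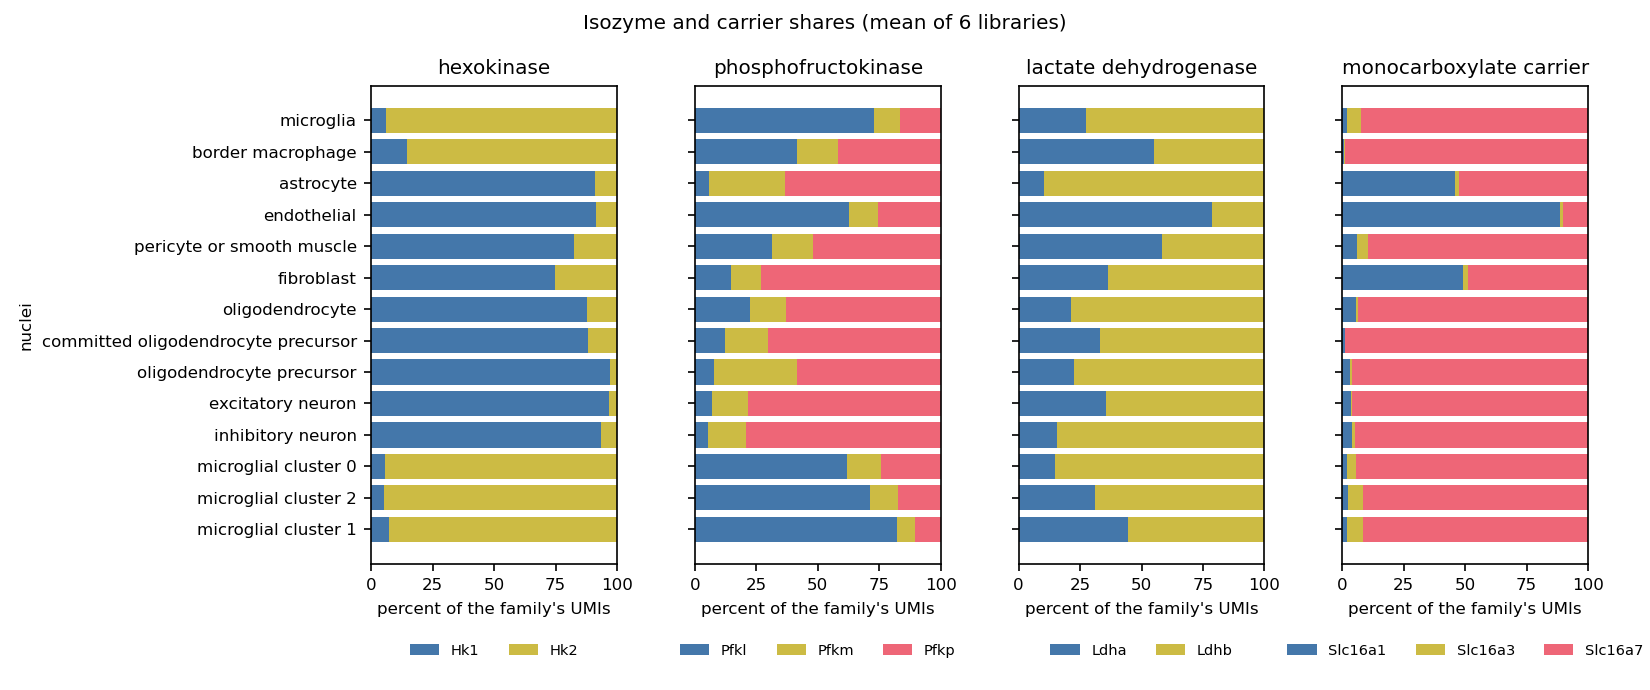
Share of each isozyme or carrier in the UMIs of its family, in percent (mean of 6 libraries), by cell type and by microglial cluster, for hexokinase, phosphofructokinase, lactate dehydrogenase and the monocarboxylate carriers. Hk2 fills 94.1% of the hexokinase bar in microglia, and Ldha grows from 14.6% in cluster 0 to 44.3% in cluster 1.

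The 7826 microglial nuclei were clustered again without the 37 genes. Cluster 0 (3319 nuclei, homeostatic-like), cluster 1 (2586, disease-associated-like, with all 14 of its detected state markers higher) and cluster 3 (314, interferon-responsive-like) could be named, and cluster 2 (1607 nuclei, with Arid5b, Cd83 and Sorl1 among its 10 leading genes) could not. The name of cluster 0 rests on 5 of 10 homeostatic markers, none of them among its 10 leading genes. The disease-associated-like cluster was set against the homeostatic-like cluster of the same library. Of the 36 genes at 5 CPM or more, 19 were higher in all 6 libraries, against 15.8% of 11010 genes, and 3 were lower in all 6 (Hk2, Ldhb and Slc2a5), against 13.8%. The median log2 ratio was 0.37 for the 36 genes and 0.01 for all genes. These values describe clusters of the same cells and carry no test.

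The 2 largest ratios belonged to the oxygen-sensing pair, both on chromosome 12. Hif1a (chr12:73901375-73947530, plus strand) was at 89.8 and 111 CPM in the homeostatic-like nuclei of 5xFAD, 101 and 91 in M28L and 92.6 and 104 in P522R (replicates 2 and 3 in that order). In disease-associated-like nuclei it was at 624 and 685, 550 and 463, and 621 and 582 CPM in the same order, a ratio of means of 5.98. Every disease-associated-like value lay above every homeostatic-like value, and the M28L values were the lowest of the 6. The gene for its hydroxylase, Egln3 (chr12:54178981-54203860, minus strand), went from 5.51 ± 2.54 to 93.6 ± 23.6 CPM, a ratio of 17.0, and cluster 2 lay between at 62.3 ± 11.4.

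The carriers of lactate and sugar differed in their makeup too. Slc16a3 was at 7.28 ± 1.01 CPM in homeostatic-like and 24.8 ± 4.67 in disease-associated-like nuclei, and Slc16a7 at 185 ± 15.2 and 346 ± 32, each without overlap between the libraries. Slc2a1 went from 13.6 to 35.7 CPM, while Slc2a5 went from 112 ± 13.9 to 37.4 ± 7.48. Of the UMIs of the 3 sugar carriers, Slc2a5 supplied 64.5% ± 5.86 in homeostatic-like and 28.3% ± 2.05 in disease-associated-like nuclei, and Slc2a1 supplied 7.91% ± 1.88 and 27.1% ± 3.63. Slc2a3 was at 49.5 and 58.5 CPM, with overlapping libraries.

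Along the pathway, Pfkl (22.8 to 57.4 CPM), Tpi1 (10.95 to 29.4), Pgk1 (10.97 to 30.5), Eno1 (22.9 to 44.1), Gpi1 (44.8 to 88.7) and Pkm (44.7 to 102) were higher in disease-associated-like nuclei without overlap. Gapdh (30.6 to 43.3), Ldha (18.3 to 37.6) and Slc16a1 (3.67 to 6.45) were higher within each of the 6 libraries, though the ranges overlapped. Aldoa, at 26.3 and 31.5 CPM, and Pgam1, at 10.25 and 15.6, were higher in 5 of 6 libraries. Pfkfb3, at 144 and 248 CPM, was higher without overlap, whereas Pfkfb4 (70.9 and 62.9) and Pfkfb2 (27.4 and 28.7) had overlapping libraries.

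Hexokinase 2 and Ldhb had the opposite order. Hk2 was at 489 ± 34.3 CPM in homeostatic-like and 374 ± 55.1 in disease-associated-like nuclei, and it was lower in all 6 libraries, yet it still held 92.9% of hexokinase UMIs. Ldhb was at 107 ± 8.11 and 45.8 ± 5.85 CPM, lower in all 6 libraries without overlap, so the share of Ldha in the pair was 14.6% ± 1.51 in homeostatic-like and 44.3% ± 7.79 in disease-associated-like nuclei. At the mitochondrion, Mpc1 (167 and 193 CPM), Pdk1 (156 and 185) and Pdk3 (26.8 and 38.3) were higher in all 6 libraries, while Mpc2, Pdha1, Pdhb and Pdk2 overlapped. Bnip3 was at 14.8 and 28.4 CPM, without overlap.

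Cluster 2, which no marker list named, had means between those of clusters 0 and 1 for most of these genes. The exceptions were Aldoc, Eno2, Hk1, Mpc2, Pdha1, Pdhb, Pdk2, Pfkfb2, Pfkm and Slc2a3, and Pdk1 (213 CPM) and Slc16a1 (7.48), whose means were highest there. There 13 of the 36 were higher than in cluster 0 in all 6 libraries, against 9.91% of all genes, and Ldhb and Slc2a5 were lower in all 6, against 7.86%. Its mean of Hif1a was 315 ± 47.4 CPM, its mean of Slc2a5 64.5 ± 15.8 and its Ldha share 30.9%. The median log2 ratio of the 36 genes was 0.25, and 0.02 for all genes.

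**Figure D3:**
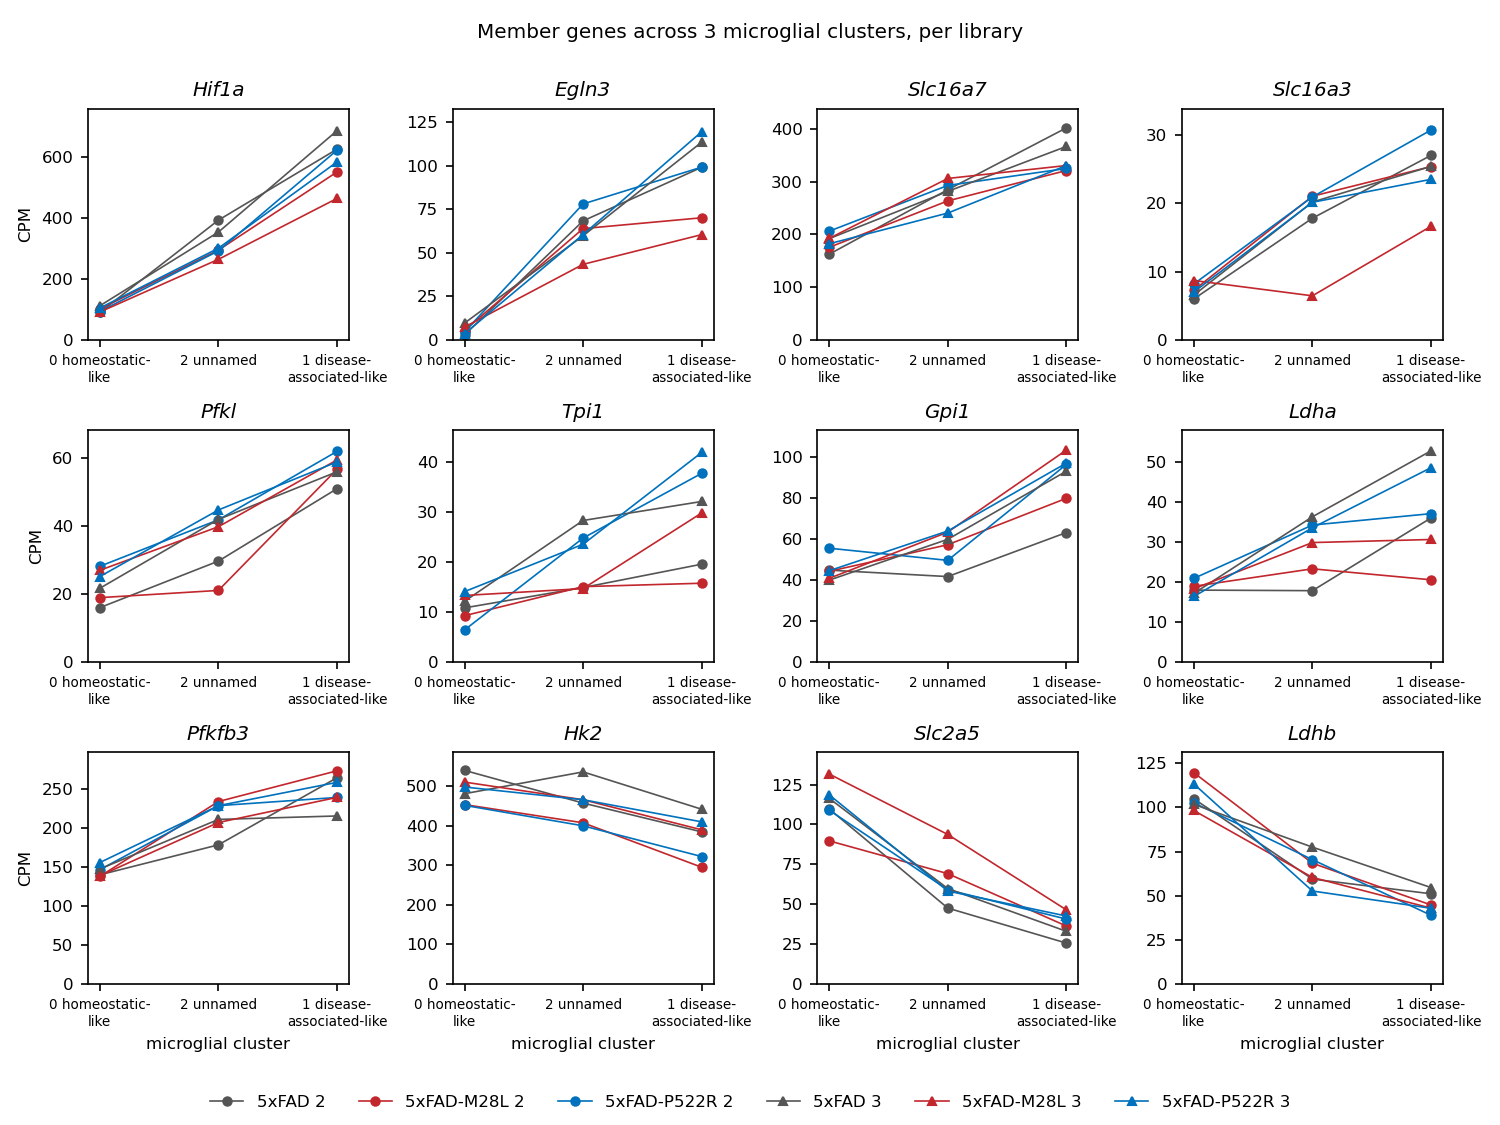
CPM of 12 genes in microglial clusters 0, 2 and 1 (left to right in each panel), with 1 line per library (colour for genotype, circle for replicate 2, triangle for replicate 3). Hif1a and Egln3 lie higher in cluster 1 than in cluster 0 in all 6 lines, and Hk2, Slc2a5 and Ldhb end lower than they start in all 6.

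The neighbours of the pathway, listed apart from the 37 genes, were read in the same way, beside the same 15.8% of all genes higher and 13.8% lower in all 6 libraries. Of 10 other genes of glycolysis and hexose handling, 3 were higher: Pgm1 (31.3 to 68.3 CPM), Tigar (4.74 to 14.7) and Galm. Of 3 further monocarboxylate genes, Slc16a10 was higher (96 to 189 CPM) and Slc16a6 lower (345 to 248.95). Of 8 pentose phosphate genes, 4 were higher in the disease-associated-like cluster in all 6 libraries, among them Pgd (41.9 to 67.6 CPM), which oxidises phosphogluconate, and Tkt (25.9 to 40.5), the transketolase, and H6pd was lower. Of 11 glycogen genes at 5 CPM or more, 5 were higher: the synthase Gys1 (16.9 to 35.9 CPM), the primer Gyg, the phosphorylases Pygb (48.4 to 75.8) and Pygl (8.97 to 23.5), and Epm2a. Of 7 oxygen-sensing genes, Arnt2 (17.7 to 122 CPM), a partner of HIF proteins, Egln1 (39.5 to 65.7) and Cited2 were higher, while Arnt, the usual partner of HIF1A, was at 180 and 169 CPM. Of 11 hypoxia targets outside glycolysis, P4ha1, Kdm3a and Ero1l (20.3 to 42.6) were higher, and of 8 other genes of pyruvate oxidation none was higher or lower in all 6 libraries.

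Because many of these genes differed in the same direction between clusters, the sequence upstream of their starts was searched for the core letters that HIF proteins are known to bind, ACGTG or GCGTG, on both strands. RefSeq promoter windows (GRCm38.p6, 250 bases before to 50 after each start) matched 35 of the 37 genes, all but Slc2a3 and Slc16a7. At least 1 match lay in 31 of the 35 genes (88.6%), against 46.7% of all genes with a window. Counted by window it was 78.8% of 52 against 43.8% of 32851, and the windows of these genes hold a median of 20 CpG dinucleotides against 7. Among all windows with 13 to 25 CpG, the middle of the range of these genes, it was 66.7%, or 67.3% by gene. The share of these genes' own windows inside that band was not computed, so these shares are not matched for CpG. Nor were the 35 genes split by their order between clusters 1 and 0, so the shares do not bear on that difference. The list was chosen to hold glycolytic and hypoxia genes, which HIF1A is known to raise in many cases. By gene, 52 windows belong to these 35 genes and 32851 to all 27025. The 250 bases before the start are shown for the 5 genes with the largest and the 2 with the smallest ratio between clusters 1 and 0, 5′ to 3′ on the gene's strand, with capitals for a match on either strand.
Egln3, chr12:54203875-54204124, minus strand: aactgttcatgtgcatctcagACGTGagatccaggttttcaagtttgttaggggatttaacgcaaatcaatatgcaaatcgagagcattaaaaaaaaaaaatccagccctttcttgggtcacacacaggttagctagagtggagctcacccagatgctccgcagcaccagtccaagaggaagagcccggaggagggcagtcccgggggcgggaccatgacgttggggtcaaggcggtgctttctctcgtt
Hif1a, chr12:73907617-73907866, plus strand: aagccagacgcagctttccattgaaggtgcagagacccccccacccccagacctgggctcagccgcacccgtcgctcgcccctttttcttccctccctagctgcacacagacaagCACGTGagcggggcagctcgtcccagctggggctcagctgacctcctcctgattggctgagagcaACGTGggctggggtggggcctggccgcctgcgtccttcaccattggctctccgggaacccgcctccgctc
Slc16a3, chr11:120948817-120949066, plus strand: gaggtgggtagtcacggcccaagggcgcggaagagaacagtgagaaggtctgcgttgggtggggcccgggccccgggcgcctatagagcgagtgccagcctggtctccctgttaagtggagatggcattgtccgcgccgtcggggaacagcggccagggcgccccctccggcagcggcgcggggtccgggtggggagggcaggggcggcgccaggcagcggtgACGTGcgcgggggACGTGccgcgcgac
Pgk1, chrX:106186850-106187099, plus strand: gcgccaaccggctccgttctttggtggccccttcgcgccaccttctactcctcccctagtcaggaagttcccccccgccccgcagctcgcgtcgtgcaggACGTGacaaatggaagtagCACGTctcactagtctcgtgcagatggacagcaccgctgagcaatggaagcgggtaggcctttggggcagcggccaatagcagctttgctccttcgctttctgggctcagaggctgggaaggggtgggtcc
Tpi1, chr6:124814159-124814408, minus strand: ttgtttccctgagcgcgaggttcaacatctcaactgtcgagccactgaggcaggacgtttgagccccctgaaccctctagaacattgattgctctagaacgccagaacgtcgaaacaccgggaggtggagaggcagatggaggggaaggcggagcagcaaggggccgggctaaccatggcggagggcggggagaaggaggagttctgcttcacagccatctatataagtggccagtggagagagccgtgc
Ldhb, chr6:142507958-142508207, minus strand: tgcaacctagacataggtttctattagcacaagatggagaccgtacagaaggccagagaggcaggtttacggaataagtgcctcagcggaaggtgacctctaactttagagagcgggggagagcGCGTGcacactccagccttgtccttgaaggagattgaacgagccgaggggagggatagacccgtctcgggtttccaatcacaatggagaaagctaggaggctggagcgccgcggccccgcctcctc
Slc2a5, chr4:150119094-150119343, plus strand: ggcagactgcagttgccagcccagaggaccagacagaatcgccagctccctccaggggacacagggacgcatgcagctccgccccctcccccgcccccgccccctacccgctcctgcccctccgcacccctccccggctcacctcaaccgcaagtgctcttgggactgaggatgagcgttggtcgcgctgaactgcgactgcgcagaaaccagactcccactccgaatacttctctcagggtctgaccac
The Hif1a window has 3 matches, of which 2 come from the palindrome CACGTG read on both strands. Slc16a3 and Pgk1 have 2 each and Egln3 has 1. Tpi1, which was higher in cluster 1, has none in these 250 bases, Ldhb, which was lower, has 1, and Slc2a5 has none. A match describes the letters in the window, and binding was not measured.

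The comparison the study was designed for is that between genotypes. In microglia, edgeR's quasi-likelihood test called none of the 36 genes tested at an adjusted p under 0.05, in any of the 3 contrasts (backgrounds 0.00732%, 0.0% and 0.00732% of 13656 genes, in the order M28L then P522R against 5xFAD, and last P522R against M28L, which is kept below). At an unadjusted p under 0.05 there were 2, 5 and 6 of the 36 genes, beside 6.02%, 9.66% and 8.49% of all genes. DESeq2 called none of the 36 either, among 6, 9 and 44 genes.

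The genes with the smallest p between P522R and M28L were mostly those that marked the disease-associated-like cluster. Hif1a was at 213 and 440 CPM (TMM-normalized, replicates 2 and 3) in 5xFAD, 245 and 240 in M28L and 382 and 388 in P522R. The 2 P522R libraries were above both M28L libraries, and the 5xFAD libraries lay on either side of both groups. The log2 difference of P522R from M28L was 0.67 ± 0.26 (SE, adjusted p = 0.539, edgeR). Egln3 was at 26.9 and 69.9, 35.5 and 31.4, and 62.1 and 73.9 CPM in the same order, a log2 difference of 1.03 ± 0.35 (adjusted p = 0.481). Tpi1 (0.86), Pgk1 (0.67) and Slc2a1 (0.58) had the same sign, and Ldhb was at −0.35, all with adjusted p between 0.524 and 0.573.

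The share of disease-associated-like nuclei was 16.3% and 46.5% of microglia in 5xFAD, 16.6% and 18.2% in M28L and 49.3% and 49.7% in P522R. Both P522R libraries were above both M28L libraries here too. The full order differed, since 5xFAD replicate 3 lay below both P522R libraries in this share and above them in Hif1a. The part of these shares in the microglial differences was not tested, and within the homeostatic-like cluster Hif1a was at 89.8 to 111 CPM in all 6 libraries. Leaving out single 5xFAD libraries changed the calls, in fits where 1 library stands for 5xFAD and is assumed to vary like the other groups. Without 5xFAD replicate 2, Egln3 and Hif1a were called in M28L against 5xFAD, beside 139 of 14243 genes, and in P522R against M28L (adjusted p of Hif1a 2.89e-04), beside 310 of 14243. Without 5xFAD replicate 3, Egln3 and Hif1a were again called in P522R against M28L, beside 315 of 14091 genes, and 6 genes (Egln3, Gpi1, Hif1a, Pfkl, Slc2a1 and Tpi1) in P522R against 5xFAD, beside 846 of 14091.

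In P522R against 5xFAD the smallest p belonged to Aldoc, at 15.5 and 12.8 CPM in 5xFAD, 13.5 and 7.76 in M28L and 7.16 and 6.16 in P522R (log2 difference −1.08 ± 0.30, adjusted p = 0.498). Aldoa (−0.36), Ldhb (−0.33) and Hk2 (−0.26) had lower and Pfkfb3 (0.26) higher values in P522R. In M28L against 5xFAD the 2 genes with p under 0.05 were Gapdh (−0.43) and Aldoa (−0.36). The summed level of 10 astrocyte transcripts in microglia was 827 to 832 CPM in 5xFAD, 839 to 901 in M28L and 564.7 CPM in both P522R libraries, so it was lowest in P522R and not lower in M28L than in 5xFAD, and its part in the Aldoc and Ldhb values was not tested.

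**Figure D4:**
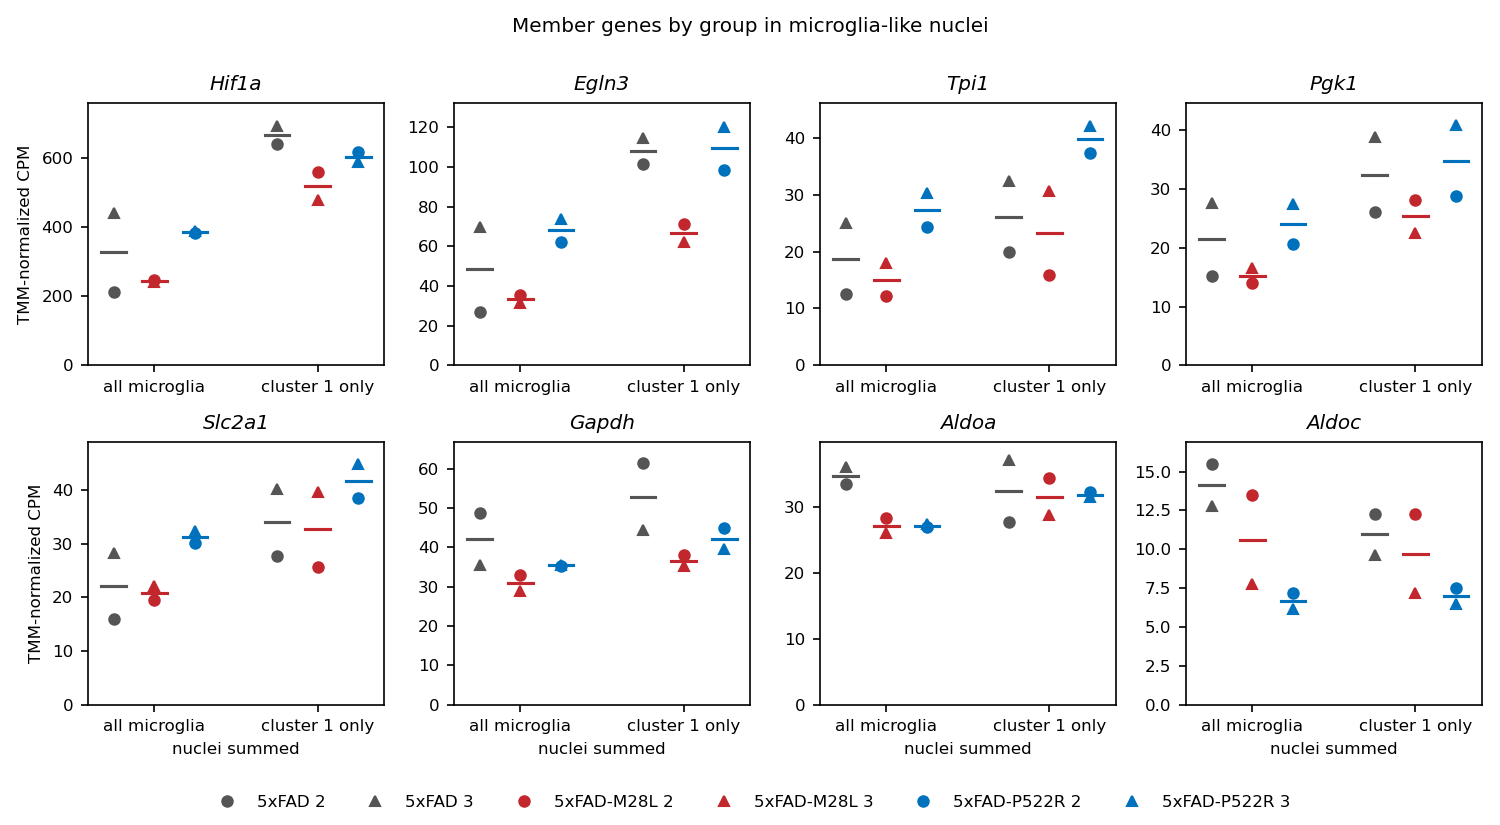
TMM-normalized CPM of 8 genes by genotype (colour; circle for replicate 2, triangle for replicate 3, bar for the mean of 2 libraries), over all microglial nuclei (left of each panel) and over disease-associated-like cluster 1 alone (right). For Hif1a the 5xFAD libraries lie at 213 and 440 over all microglia, and at 639 and 692 within cluster 1.

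Tests within single clusters leave out the shares of the clusters, but a mix of states left inside a cluster was not tested. They were added after the data had been seen. In the homeostatic-like cluster no gene of 35 was called, by edgeR (background 0.0174% in each contrast) or DESeq2, with 2, 2 and 1 at an unadjusted p under 0.05, beside 6.30%, 9.30% and 5.92% of all genes. There Slc2a3 was at 30.03 and 51.3 CPM in 5xFAD, 54.7 and 81.2 in M28L and 31.7 and 51.1 in P522R, so both M28L libraries lay above both 5xFAD libraries, and replicate 3 was the higher one in each group. Its log2 difference was 0.76 ± 0.26 (adjusted p = 0.761, edgeR), and with the replicate number as a block it was the 1 gene of these called, among 88 of 11515 genes.

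In the disease-associated-like cluster none of the 35 genes tested was called by edgeR (backgrounds 0.468%, 0.0187% and 0.561% of 10694 genes) or DESeq2. At an unadjusted p under 0.05 there were 5, 3 and 4, beside 10.1%, 6.44% and 10.2% of all genes. Egln3 came closest, at 101 and 115 CPM in 5xFAD, 71.04 and 62.2 in M28L and 98.4 and 120 in P522R. M28L lay below both other groups without overlap, by −0.74 ± 0.18 against 5xFAD (adjusted p = 0.0842, edgeR), and P522R lay above M28L by 0.74 ± 0.17 (adjusted p = 0.0654). The second of these passed without P522R replicate 2 (adjusted p = 0.00937, among 140 of 10654 genes), where P522R is 1 library assumed to vary like the other groups. The first passed without P522R replicate 2 (0.025) or replicate 3 (0.0326), among 146 and 127 genes.

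Some other genes of the same cluster were also lowest in M28L, without a call, while 11 of the 35 were higher in M28L than in 5xFAD. Among the 5 genes at an unadjusted p under 0.05 in that contrast, Pfkfb4 was higher in M28L. Its log2 difference was 0.26 to 0.97 when single libraries were left out. Hif1a was at 639 and 692 CPM in 5xFAD, 557 and 477 in M28L and 617 and 587 in P522R, −0.38 ± 0.11 for M28L against 5xFAD (adjusted p = 0.141). Ldha was at 36.9 and 53.4, 20.8 and 31.5, and 36.8 and 49.0 CPM, −0.86 ± 0.27 for the same contrast (adjusted p = 0.213). Ero1l, the oxidase of disulfide formation and a HIF target on the neighbouring list, was at 47.6 and 60.1, 33.1 and 26.1, and 42.6 and 49.0 CPM (−0.95, adjusted p = 0.0883). It was picked from that list after its values were seen, and the genotype tests of the list's other genes are not reported here. In cluster 2, Hif1a was at 403 and 358 CPM in 5xFAD, 300 and 272 in M28L and 291 and 304 in P522R (−0.39 for M28L, adjusted p = 0.442), and none of 33 genes was called there by edgeR (backgrounds 0.101%, 0.0507% and 0.122%) or DESeq2. At an unadjusted p under 0.05 there were 3, 2 and 2, beside 6.13%, 6.84% and 6.08% of all genes.

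Oligodendrocytes, the most numerous type with 4091 to 6636 nuclei per library, gave the most precise values. None of 38 identifiers was called by edgeR (backgrounds 0.0%, 0.044% and 0.00629% of 15892 genes), with 7, 8 and 2 at an unadjusted p under 0.05, beside 13.01%, 12.4% and 6.98% of all genes. Aldoc was at 13.96 and 12.6 CPM in 5xFAD, 9.80 and 8.02 in M28L and 7.13 and 7.33 in P522R, and the 3 groups did not overlap. Its log2 difference was −0.57 ± 0.14 in M28L (adjusted p = 0.326) and −0.88 ± 0.15 in P522R (adjusted p = 0.189). DESeq2 called the latter (adjusted p = 0.00744), among 93 of 15892 genes. Astrocyte transcripts summed to 653 to 665 CPM in these nuclei in 5xFAD, 594 to 676 in M28L and 447 to 461 in P522R, and their part in the value of Aldoc was not tested.

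Oligodendrocyte libraries with the same replicate number deviated together from their group means (correlations 0.342 to 0.434). The labels do not say what the shared number means, so a pairing of the libraries is assumed in what follows. With the number as a block 4 of the 38 identifiers were called in M28L against 5xFAD, among 1169 of 15892 genes, so the block called many genes of every kind. These were Aldoc (adjusted p = 0.0236), Hk1 (0.0406), Pkm (0.0374) and Gpi1 (0.0499). Hk1 was at 18.2 and 21.3 CPM in 5xFAD, 25.3 and 25.6 in M28L and 21.6 and 23.01 in P522R, 0.37 ± 0.10 for M28L. Pkm was at 88.1 and 96.8, 118 and 113, and 110 and 93.9 CPM (0.32 ± 0.09), and Gpi1 at 35.1 and 38.2, 43.5 and 45.8, and 40.5 and 39.7 (0.28 ± 0.08). For all 3 genes the M28L libraries were the highest.

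In P522R against 5xFAD the block called Aldoc (adjusted p = 0.00259) and Ldhb (0.0405) of the 38 identifiers, among 1065 of 15892 genes. Ldhb was at 16.9 and 14.6 CPM in 5xFAD, 13.8 and 12.4 in M28L and 11.5 and 11.6 in P522R. In P522R against M28L it called Pdk4 (0.0102), among 240 of 15892 genes. Pdk4, the kinase of fasting and lipid use, was at 9.48 and 19.5 CPM in 5xFAD, 13.8 and 24.2 in M28L and 8.45 and 10.9 in P522R, so each genotype was higher in replicate 3 (−0.97 ± 0.37 for P522R against M28L without the block). The lactate carrier Slc16a1 was at 13.2 and 12.3, 9.97 and 11.7, and 14.8 and 12.98 CPM (0.36 ± 0.13 for P522R against M28L, adjusted p = 0.659).

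In the other 9 cell types none of the genes was called in any contrast by edgeR or DESeq2. From 0 to 8 genes per type and contrast had an unadjusted p under 0.05, beside 3.19% to 11.8% of all genes. The backgrounds were 0.0% in border macrophages and fibroblasts, 0.0895%, 0.0% and 0.0% in committed precursors and 0.0335%, 0.168% and 0.0335% in pericytes or smooth muscle. In astrocytes 2, 8 and 4 of 35 genes had an unadjusted p under 0.05, beside 5.13%, 10.6% and 8.44% of all genes (backgrounds 0.0%, 0.0217% and 0.0%). The smallest was for Slc16a7, at 8.03 and 6.84 CPM in 5xFAD, 9.08 and 11.1 in M28L and 16.4 and 12.7 in P522R (0.99 ± 0.27, adjusted p = 0.302). Pfkp was at 155 and 181, 152 and 153, and 128 and 131 CPM (−0.37 ± 0.11, adjusted p = 0.339), while Gpi1, Aldoa, Gapdh, Pgam1, Pkm and Hk1 had higher values in P522R than in 5xFAD. In these P522R astrocytes oligodendrocyte transcripts summed to 1805 to 2123 CPM against 1236 CPM in both 5xFAD libraries and mitochondrial ones to 378 to 674 against 149 to 254. Neuron transcripts summed to 336 to 438 CPM in P522R, 234 to 253 in M28L and 179 to 202 in 5xFAD, and the part of these 3 sums in these values was not tested.

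Endothelial Slc2a1 was at 1097 and 1485 CPM in 5xFAD, 1819 and 1645 in M28L and 1120 and 956 in P522R. The P522R libraries were below both M28L libraries, with a log2 difference of −0.73 ± 0.21 (adjusted p = 0.938, edgeR). In these nuclei 0, 3 and 5 of 25 genes had an unadjusted p under 0.05, beside 3.28%, 4.48% and 4.96% of all genes (backgrounds 0.0%). Slc2a1 was the lower one of the 5, and Pgam1 (1.31), Gapdh (0.70) and Aldoa (0.67) were higher in P522R than in M28L without overlap. Aldoc (1.81) overlapped, at 98.7 and 13.8 CPM in P522R and 10.9 and 25.9 in M28L, so its difference came from P522R replicate 2. Of the 25 genes, 22 had a higher value in P522R than in M28L, beside 50.6% of all genes. Their median log2 difference was 0.28, against 0.01 for all genes. Astrocyte transcripts summed in endothelial nuclei to 1031 to 1369 CPM in 5xFAD, 1111 to 1511 in M28L and 1770 to 2058 in P522R, and their part in these values was not tested. With 24 nuclei in the smallest library this contrast had little precision. Excitatory neurons that passed the NeuN sort had Gpi1 at 73.6 and 73.3, 98.9 and 93.7, and 84.7 and 81.6 CPM (0.39 ± 0.09 for M28L against 5xFAD, adjusted p = 0.286, backgrounds 0.0%, 0.00671% and 0.0%). Oligodendrocyte precursors had Slc2a3 at 57.9 and 64.2, 72.3 and 86.4, and 57.6 and 63.5 CPM (0.38 ± 0.11, adjusted p = 0.335, backgrounds 0.0%). At an unadjusted p under 0.05 there were 4, 1 and 2 of 35 genes in excitatory neurons, beside 11.8%, 10.4% and 4.12% of all genes. In the precursors there were 3, 3 and 3 of 34, beside 11.8%, 11.6% and 5.65%. The replicate block called Gpi1 in excitatory neurons and Slc2a3 in precursors in M28L against 5xFAD, and Slc2a3 in precursors also in P522R against M28L. In those fits it called 1393 and 104 of 94806 genes, counted over the 9 types together. Its counts within excitatory neurons or precursors alone are not given here, so the pooled shares are not those of the types named.

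Inhibitory neurons had 1, 3 and 1 of 34 genes at an unadjusted p under 0.05, beside 7.07%, 9.56% and 4.81% of all genes (backgrounds 0.0%, 0.343% and 0.00686% of 14567 genes). In these nuclei Aldoc, the aldolase of astrocytes, was at 7.46 and 7.20, 5.72 and 5.79, and 3.56 and 2.67 CPM (−1.21 ± 0.29 for P522R against 5xFAD, adjusted p = 0.239). Astrocyte transcripts summed there to 1286 to 1377 CPM in 5xFAD, 1038 to 1276 in M28L and 906 to 961 in P522R, and their part in these values was not tested.

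Both sexes were present in every library, so nuclei called female (by Xist) and male (by Y-linked genes) could be compared within libraries. In microglia no gene of 36 was called (background 0.0638% of 10965 genes) by edgeR or DESeq2, and 9 had an unadjusted p under 0.05, beside 5.96% of all genes. Of the 36, 23 were higher in female nuclei, beside 52.0% of all genes. The median log2 difference of the 36 genes was 0.17, and 0.01 for all genes. Gpi1 was at 72.1 ± 19.3 CPM in female and 54.8 ± 4.80 in male nuclei (n = 6 libraries, higher in 5 of 6, log2 difference 0.37 ± 0.12, adjusted p = 0.784). Slc16a3 (0.63), Pfkl (0.41), Aldoa (0.31), Hk1 (0.38) and Pfkfb4 (0.23) had higher values in female nuclei in 4 or 5 of 6 libraries, and Slc16a7 (−0.23) and Mpc2 (−0.34) were lower in female nuclei in 6 of 6 libraries.

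The shares of female nuclei among sexed microglia were 40.5% and 63.6% in 5xFAD, 39.9% and 53.8% in M28L and 69.8% and 66.0% in P522R, with the 2 highest shares in P522R. In 5xFAD replicate 2 Gpi1 was at 40.7 CPM in female and 48.6 in male nuclei, and without that library Gpi1, Pfkl and Pfkfb3 were called (adjusted p of Gpi1 0.0269), among 302 of 11062 genes. The X-linked genes Pgk1 (0.31 ± 0.16), Pdha1 (−0.25 ± 0.21) and Pdk3 (−0.06 ± 0.12) showed no call. In oligodendrocytes no gene of 35 was called (background 0.06% of 13327 genes) by either tool, and 1, Pfkfb3, had an unadjusted p under 0.05: it was higher in female nuclei in 6 of 6 libraries (18.5 ± 2.41 against 15.8 ± 1.86 CPM, 0.23 ± 0.08, adjusted p = 0.795).

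**Figure D5:**
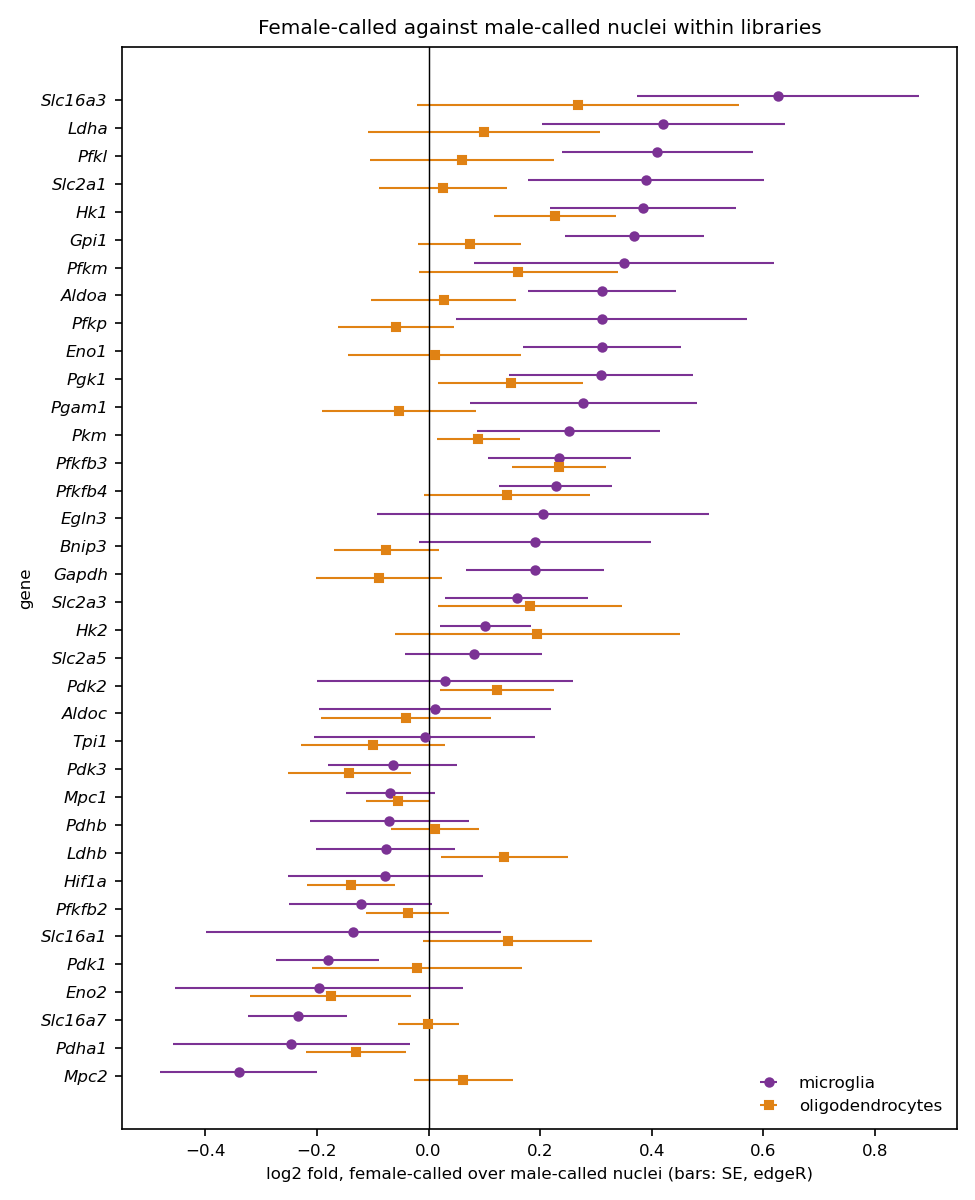
Log2 difference of female-called from male-called nuclei within libraries for each gene (rows), in microglia (circles, sorted by this value) and oligodendrocytes (squares), with bars of 1 standard error from edgeR. Slc16a3 has the highest microglial value at 0.63 and Mpc2 the lowest at −0.34, and the bar of Pfkfb3 in oligodendrocytes lies at 0.23.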

How the data were processed

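For each library the authors deposited a table of UMI counts (genes by nuclei, not normalized), made from 10x Genomics 3′ libraries, per the labels' protocols. Cell Ranger 6.1.2 and mm10 are named in the submitters' processing notes; per the file headers P522R replicate 3 was made with version 5.0.1, which cannot be told apart from that library. Whether intron reads were counted is not given in the sources used here. Filters asked for 500 UMIs, 300 genes and no more than 5% mitochondrial UMIs, which left 62651 nuclei. Scrublet in scanpy 1.11.5 marked 2566 doublets at a common score of 0.311, the median of its automatic thresholds, because 2 libraries' own thresholds marked under 0.5%. Doublets were removed after clustering.

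Clusters came from 2000 variable genes, 30 components, 20 neighbours and Leiden resolution 1, without the 37 genes. Single seeded runs gave different partitions, some of which had been seen before, so the run most like the others was taken out of 10 (mean adjusted Rand index 0.933, 38 clusters) and, for microglia (1000 genes, 15 components, resolution 0.5), out of 20 (mean 0.809, range 0.612 to 0.891). Clusters were named from marker lists, with bounds set after looking at them. T cells and olfactory ensheathing glia were too few to test.

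Sums of UMIs over the nuclei of a type in a library entered edgeR 4.0.16 (R 4.3.3). Genes passed filterByExpr at a count of 10, libraries were scaled by TMM, and the 6 libraries shared 1 quasi-likelihood fit by group, with two-sided tests, Benjamini-Hochberg adjustment over all genes and a threshold of 0.05. The code was tested on simulated counts. DESeq2 1.42.0, other filters and scalings, single libraries left out and a replicate block were alternatives. Nuclei were called female from at least 2 Xist UMIs and male from 4 Y-linked genes, and library was the block between sexes. With 2 libraries against 2 an exact permutation test cannot go below 0.333.

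The 37 genes and all lists were chosen with earlier results of these data known. Named in a contrast are the genes that passed and, in microglia, up to 8 per direction with the smallest p, and between sexes up to 6 per direction and the X-linked ones. Genes named in single microglial clusters and in other types were chosen after their values were seen. Deviations of same-numbered libraries from their group means correlated over 0.1 in every pair in microglia (0.175 to 0.308) and the homeostatic-like cluster (0.116 to 0.248). So they did in oligodendrocytes (0.342 to 0.434), their precursors and both neuron types. There the replicate number was treated as a possible pairing of the libraries. The labels do not say what the number means, and the bound of 0.1 was applied to the same counts that the block tests. In the other types and microglial clusters at least 1 pair was below 0.1. Genotype tests of the neighbouring lists are not reported here, apart from Ero1l.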

Additional observations from a re-analysis of the deposited data

Results flagged for a closer look

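A cluster of 1114 nuclei could not be named, so it enters no comparison above: its nuclei had a median of 0.129 times the UMIs of their own libraries, and its leading genes included Fth1, Apoe and Lars2. In it 10 of the 37 genes had a higher mean CPM over the 6 libraries than in any named cell type. Gapdh was at 270.2 CPM (108.2 to 367.8 between libraries), against 147.2 in the highest named type. Aldoa was at 156.8 against 141.2, Gpi1 at 110.5 against 109.3 and Tpi1 at 74.61 against 48.55. Eno2 was at 70.97 against 62.12, Pgam1 at 63.13 against 42.61 and Eno1 at 59.8 against 56.51. Pgk1 was at 51.97 against 29.97, Mpc2 at 50.07 against 44.3 and Pdhb at 42.6 against 35.09. Whether these UMIs came from the nuclei or from RNA outside them was not tested. Other clusters were left unnamed too, the largest with 1244 nuclei. It had all 11 microglial markers higher, and 49.1% of its nuclei were called doublets. Without the doublets it held 71 and 96 nuclei in 5xFAD, 24 and 42 in M28L and 68 and 332 in P522R (replicates 2 and 3). The part of this uneven loss in the microglial values and state shares was not tested. With 2 libraries per group, no group was large enough to look for an outlying library.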

How the results depend on the processing

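No recomputed result changed direction. Of 150 recomputed counts of genes that left no library out, 130 stayed within 1.5 times the reported count. The other 20 were all counts of called genes reported as 0, given here in the order of contrasts used above. Without the filter on low counts, microglia had 2 (Egln3, Hif1a), 1 (Aldoc) and 3 (Egln3, Hif1a, Tpi1), oligodendrocytes 0, 1 (Aldoc) and 1 (Pdk4), the other types 2 (Gpi1 in excitatory neurons, Slc2a3 in oligodendrocyte precursors), 2 (Aldoc and Hk2 in inhibitory neurons) and 2 (Slc2a1 in endothelial cells, Slc2a3 in precursors), and the homeostatic-like cluster 1 (Slc2a3) in the first contrast. The counts over all genes without that filter are not given here, so these calls have no background beside them and are not read as particular to these genes. With the replicate block, oligodendrocytes had 4, 2 and 1, the other types 2, 0 and 1, and the homeostatic-like cluster 1 in the first contrast. Where it called any of these genes, its count over all genes is given above. Disease-associated-like cluster 1, where deviations of same-numbered libraries correlated at 0.0752 to 0.109, had 1 (Egln3) in P522R against M28L, beside 112 of 10694 genes. The block changed no other call. DESeq2 gave 1 (Aldoc) in oligodendrocytes for P522R against 5xFAD, beside 93 of 15892 genes. For P522R against M28L, microglia had 2 (Egln3, Hif1a) with only the 4 libraries compared, beside 300 of 13254 genes. In male-called nuclei microglia had 1 (Hif1a), beside 60 of 11405 genes, and oligodendrocytes 1 (Pdk4), beside 34 of 13704. The cause of these shifts was not tested.

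Leaving out each library in turn gave 0 to 2, 0 to 6 and 0 to 2 called genes in microglia, 0 to 3 between sexes in microglia, and 0 to 1 in M28L against 5xFAD and P522R against M28L in cluster 1. The 19 genes higher and 3 lower in the disease-associated-like cluster were also 19 and 3 in number with the 37 genes kept among the clustering genes. The homeostatic-like comparison with doublets kept was not run, since states were clustered without doublets. Of 814 recomputed single-gene values, 786 kept their call or stayed within the spread between libraries, and 28 newly passed the threshold.

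Depth limits most what can be said of endothelial cells, border macrophages and pericytes, where few nuclei entered, and of genes such as Slc16a3, Pgam1 and Slc2a5 outside microglia. Microglial clusters varied with the seed, so cluster levels and the tests within them hold for the partition used.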

Other observations

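The interferon-responsive-like microglial cluster (314 nuclei) had means near those of the homeostatic-like one for several of these genes. Hif1a was at 132 ± 54.4 CPM over the 6 libraries, Egln3 at 9.15 ± 6.52 from 12 UMIs, Slc2a5 at 88.5 ± 17.4 and Ldhb at 85.9 ± 24.9, and Ldha made up 17.9% of the lactate dehydrogenase UMIs. Pfkfb3, at 203 ± 59.2 CPM, and Pfkfb4, at 90.5 ± 37.2, had the most UMIs of their family here too. With 21 to 70 nuclei per library, these levels carry wide errors. None of 13 genes tested between genotypes in this cluster was called by edgeR (backgrounds 0.0201%, 0.0% and 0.0% of 4976 genes). At an unadjusted p under 0.05 there were 2, 1 and 1, beside 7.44%, 6.97% and 6.37% of all genes.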
